A study of Homo sapiens with 6 samples.

Results

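The genes described here are those of the platelet-derived growth factor (PDGF) system in IMR90, a line of human lung fibroblasts. They comprise 4 ligand genes (PDGFA, PDGFB, PDGFC and PDGFD), both receptor genes (PDGFRA and PDGFRB), the receptor-like gene PDGFRL and CSPG4, which encodes the proteoglycan NG2. The 8 genes were chosen by symbol, each is read by a single probe set that names no other gene, and they are 8 of 18417 genes measured. Total RNA was hybridised to Affymetrix arrays, 1 per sample, from 3 control samples left untreated and 3 that received 10 ng/mL of recombinant human oncostatin M once. Oncostatin M, an interleukin-6 type cytokine, activates JAK kinases and STAT3 through its receptor. All samples are of the same line, and for how long the treated cells were exposed is not stated in the labels.

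PDGF ligands are secreted dimers that bind receptor tyrosine kinases on mesenchymal cells and drive their migration, division and survival. The A and C chains act on the alpha receptor, the B chain binds both receptors, and the D chain acts mainly on the beta receptor. A and B chains are cut to their active form inside the cell, whereas C and D chains are secreted with a CUB domain that extracellular proteases must remove. In the lung, the alpha receptor marks fibroblasts of the alveoli and the beta receptor and CSPG4 are used as markers of pericytes, although cultured fibroblasts express both receptors.

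Values are log2 expression levels, given array by array in the order of replicates 1, 2 and 3 or as mean ± SD (n = 3). Changes are log2 differences, oncostatin M minus control, each with its standard error (SE), and the adjusted p is that of limma with Benjamini-Hochberg adjustment over all 18417 genes, called at 0.05. Array medians ran from 6.54 to 6.66. The array of oncostatin M replicate 1 stood farthest from its group (mean absolute deviation 0.13 per gene, against 0.064 to 0.088 on the others). The cells responded to the cytokine, with SOCS3 at 7.58 ± 0.04 in control and 9.64 ± 0.06 after oncostatin M. Nothing in the labels says whether replicates were independent cultures, so the p-values reflect the scatter of these samples alone, which could be technical. In RNA of whole cultures, fewer cells of a type and less RNA per cell cannot be told apart.

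After oncostatin M the ligands and receptors of the PDGF system went in different directions. PDGFD and PDGFRA rose, 1.48-fold and 1.31-fold, and PDGFC, PDGFRB and CSPG4 fell, 1.51-fold, 1.29-fold and 1.59-fold. Thus 2 of 8 genes were called higher and 3 lower, where 3.42% of all genes were called, 1.72% higher and 1.70% lower. The control and oncostatin M values did not overlap for 6 of the 8 genes, 2 higher and 4 lower, against 18.0% of all genes (7.43% higher and 10.6% lower). The median change of the 8 genes was -0.235, beside 0.00057 for all genes. Without oncostatin M replicate 1, the array that stood apart, 2 genes were called higher and 4 lower, the added one being PDGFA. Leaving out a control array reduced these counts to 0 higher and 1 lower in each of the 3 cases, and leaving out oncostatin M replicate 2 reduced them to 1 and 2.

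**Figure D1:**
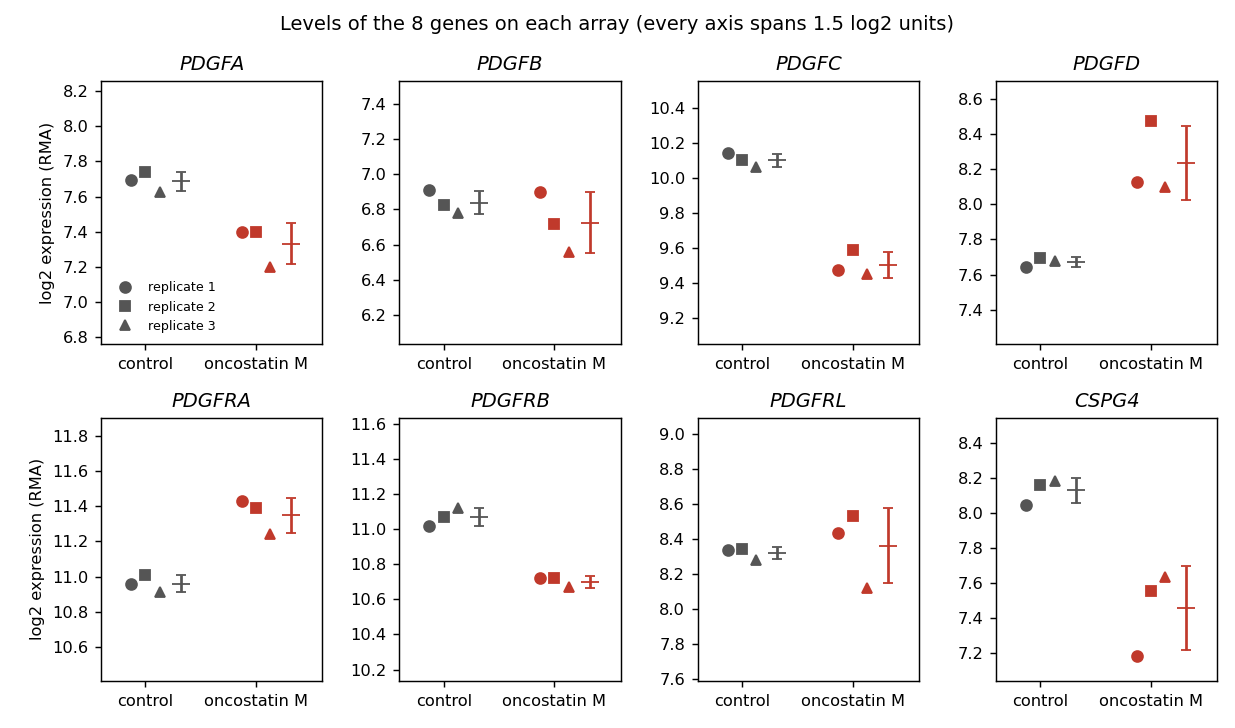
Log2 expression of the 8 genes on each of the 6 arrays, with control in grey and oncostatin M in red, a marker shape for each replicate number, and mean ± SD beside the points. The vertical axes differ in position but have the same span, so distances can be compared between genes; PDGFB and PDGFRL are the genes whose groups overlap.

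Among the ligands of the alpha receptor, PDGFC had the smallest adjusted p of the 8 genes. Its level was 10.14, 10.10 and 10.06 on the control arrays and 9.47, 9.59 and 9.45 on the oncostatin M arrays. The highest treated value lay 0.47 below the lowest control value, and values within each group lay close together. The change was -0.595 (SE 0.07, adjusted p = 0.0035, limma), a level of 66.2% of control with a 95% confidence interval on the ratio of 0.59 to 0.743. PDGFC was called in all 6 fits that left out 1 array, with adjusted p up to 0.0354.

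PDGFA, which encodes the other chain specific to the alpha receptor, gave 7.69, 7.74 and 7.63 in control and 7.40, 7.40 and 7.20 after oncostatin M. All treated values were below all control values, by 0.23 at the nearest, with replicate 3 the lowest. The change was -0.355 (SE 0.08), and the adjusted p of 0.0636 (limma) did not pass. PDGFA passed in 1 of 6 fits with an array left out, the fit without oncostatin M replicate 1 (adjusted p = 0.0421). It also passed after a further quantile normalization (0.0385) or cyclic loess (0.0454) and when only genes of higher level were tested.

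PDGFD, the ligand of the beta receptor, was the ligand gene that rose. It measured 7.64, 7.70 and 7.68 in control and 8.13, 8.48 and 8.10 after oncostatin M. Replicate 2 of the treated group was the highest, and the treated group was more spread (SD 0.21) than the control group (SD 0.03). The change was 0.56 (SE 0.11, adjusted p = 0.028, limma), with a 95% confidence interval on the ratio of 1.25 to 1.75. The call was lost without control replicate 1 (adjusted p = 0.152), 2 (0.107) or 3 (0.104). Without oncostatin M replicate 2, its highest array, the change was 0.44 and still called (0.0408).

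PDGFB, whose chain binds both receptors, measured 6.91, 6.82 and 6.78 in control and 6.90, 6.72 and 6.56 after oncostatin M, and the groups overlapped. The change was -0.11 (SE 0.10, adjusted p = 0.837, limma), with a 95% confidence interval from -0.34 to 0.11, and without oncostatin M replicate 1 it was -0.20, not called (adjusted p = 0.298). The files hold no detection calls, so the range of 409 genes that fibroblasts are not known to express, those of olfactory receptors and keratin-associated proteins, served as a reference. PDGFB, with means of 6.84 and 6.72, lay about at the 95th percentile of these reference genes (6.74 in control, 6.77 after oncostatin M), so its size is uncertain. The other 7 genes lay above that percentile in both groups.

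**Figure D2:**
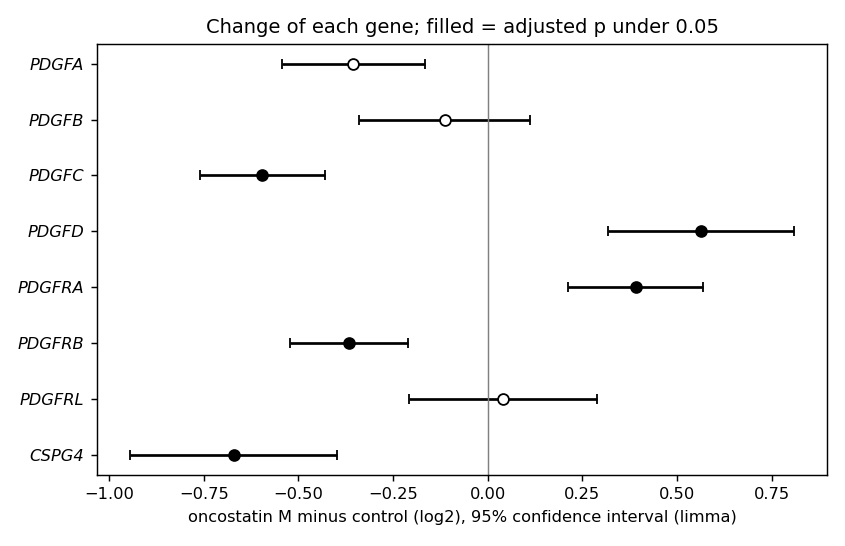
Change of each gene (log2, treated minus control) with the 95% confidence interval of limma; filled points passed an adjusted p of 0.05. PDGFD (0.56) and PDGFRA (0.39) lie to the right of 0, and PDGFC (-0.595), PDGFRB (-0.37) and CSPG4 (-0.67) to the left.

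The receptor genes changed in opposite directions. PDGFRA, the alpha receptor, was at 10.96, 11.01 and 10.91 in control and at 11.43, 11.39 and 11.24 after oncostatin M, so that every treated value exceeded every control value. It rose by 0.39 (SE 0.08, adjusted p = 0.0337, limma), or to 1.31 times control with an interval of 1.16 to 1.48. PDGFRB, the beta receptor, was at 11.02, 11.07 and 11.12 in control and at 10.72, 10.72 and 10.67 after oncostatin M. Its treated values were nearly equal and lay 0.29 or more below control. It fell by 0.37 (SE 0.07, adjusted p = 0.0253, limma), to 77.6% of control with an interval on the ratio of 0.696 to 0.865. The call of PDGFRA was lost without any 1 of the control arrays (adjusted p = 0.157, 0.102 and 0.148) or oncostatin M replicate 2 (0.128), and that of PDGFRB was lost without any array other than oncostatin M replicate 1, with adjusted p up to 0.127.

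The difference between both receptors within an array, PDGFRA minus PDGFRB, was higher by 0.76 after oncostatin M, and its values did not overlap between the groups. An exact two-sided permutation test of this difference gave p = 0.1, the smallest value that 3 against 3 arrays allow. For the ligands specific to opposite receptors, PDGFC minus PDGFD, the difference was lower by 1.16 on the log2 scale (-1.16), again with p = 0.1 by the exact permutation test. The 12 pairs tested were 6 among the ligands and 6 among PDGFRA, PDGFRB, PDGFRL and CSPG4. None of the 12 overlapped between the groups, so this is not particular to the receptor pair. All 12 gave p = 0.1 in this exact test and 0.1 after Benjamini-Hochberg adjustment. This design therefore cannot bring any pair past 0.05, and the spread of these differences is given by their SD, 0.08 in control and 0.07 after oncostatin M for the receptor pair.

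PDGFRL encodes a protein related in sequence to the extracellular part of the receptors. It measured 8.34, 8.34 and 8.28 in control and 8.43, 8.53 and 8.12 after oncostatin M, with 1 treated array below and 2 above all control values. The change was 0.04 (SE 0.11, adjusted p = 0.973, limma), with a 95% confidence interval from -0.21 to 0.29. Without oncostatin M replicate 2 it was -0.043, and with array weights -0.083, so it has no settled direction.

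CSPG4 encodes NG2, a transmembrane proteoglycan that binds PDGF-AA and is found together with PDGF receptors on mesenchymal cells. Its level was 8.04, 8.16 and 8.18 in control and 7.18, 7.55 and 7.63 after oncostatin M. All treated values lay below control, by 0.41 at the nearest, and replicate 1 was the lowest. CSPG4 fell by 0.67 (SE 0.12, adjusted p = 0.0206, limma), to 62.8% of control with an interval on the ratio of 0.519 to 0.76. Without oncostatin M replicate 1 the change was smaller, -0.535, and was called (adjusted p = 0.00587), whereas without control replicate 1, 2 or 3 the call was lost (0.0877, 0.102 and 0.0892).

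**Figure D3:**
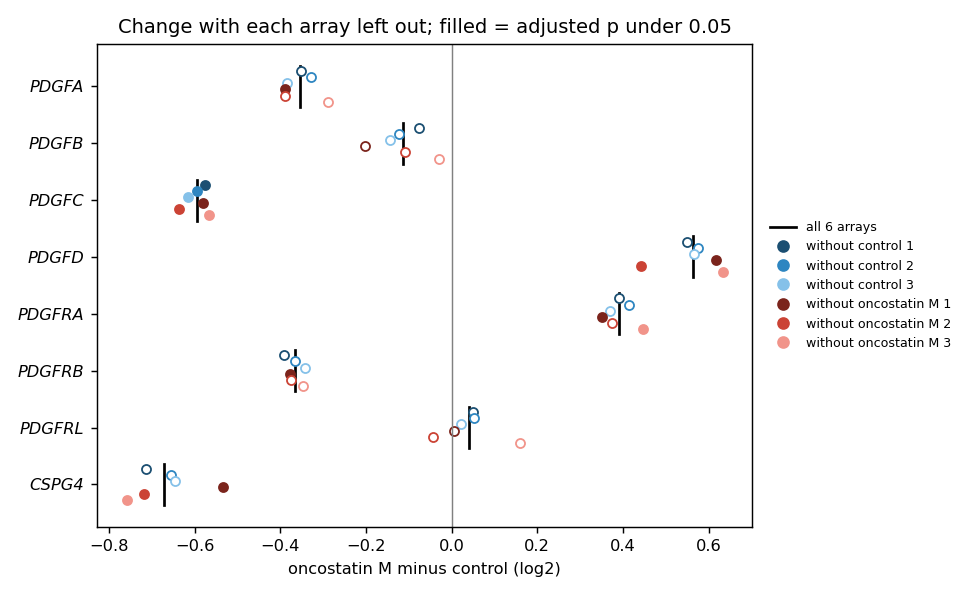
Change of each gene (log2) with all 6 arrays (black bar) and with each array left out (points, blue for a control array and red for an oncostatin M array); filled points passed an adjusted p of 0.05. PDGFC is filled in all 6 fits, PDGFRB in 1, and the direction of every gene other than PDGFRL stays the same.

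Promoter sequences are shown for the called genes, so that the genes that moved in either direction can be compared. RefSeq windows on GRCh38.p14 were examined for 5 of the 8 genes (PDGFA, PDGFD, PDGFRA, PDGFRB and CSPG4). The promoters of PDGFB, PDGFC and PDGFRL were not examined, so nothing is said of their motifs. The 250 bases before each annotated start are printed 5′ to 3′ for the examined genes that were called. Capitals mark matches, on either strand, to the AP-1 element TGANTCA, the CCAAT box CCAAT and the GC box GGGCGG, the last of which reads CCGCCC where it lies on the other strand. PDGFRA, which rose, has a pair of annotated starts on the plus strand of chromosome 4, with windows at chr4:54229043-54229292 and chr4:54233710-54233959.
PDGFRA first start: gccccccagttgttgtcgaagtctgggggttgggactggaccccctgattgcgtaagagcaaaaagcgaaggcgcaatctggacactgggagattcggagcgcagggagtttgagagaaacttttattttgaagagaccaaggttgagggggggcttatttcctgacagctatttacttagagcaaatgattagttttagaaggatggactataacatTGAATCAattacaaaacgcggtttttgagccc
PDGFRA second start: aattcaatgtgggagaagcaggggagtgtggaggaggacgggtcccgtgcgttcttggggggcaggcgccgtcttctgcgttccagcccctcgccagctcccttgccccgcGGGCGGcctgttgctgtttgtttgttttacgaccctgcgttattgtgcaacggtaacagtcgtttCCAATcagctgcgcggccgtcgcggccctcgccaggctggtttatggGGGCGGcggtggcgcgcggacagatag
PDGFD, which also rose, lies on the minus strand at chr11:104164148-104164397.
PDGFD: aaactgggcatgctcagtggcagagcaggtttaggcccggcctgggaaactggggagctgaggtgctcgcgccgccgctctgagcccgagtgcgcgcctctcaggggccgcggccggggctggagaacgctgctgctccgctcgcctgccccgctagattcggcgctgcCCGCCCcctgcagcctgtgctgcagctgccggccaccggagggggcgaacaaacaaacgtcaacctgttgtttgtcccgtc
PDGFRB and CSPG4, which fell, lie on the minus strand at chr5:150155846-150156095 and chr15:75712849-75713098.
PDGFRB: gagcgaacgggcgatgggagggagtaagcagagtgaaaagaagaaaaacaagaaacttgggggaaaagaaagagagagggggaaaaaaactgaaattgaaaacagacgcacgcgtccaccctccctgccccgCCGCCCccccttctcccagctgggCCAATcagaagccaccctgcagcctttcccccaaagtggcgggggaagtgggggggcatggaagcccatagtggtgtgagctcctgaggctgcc
CSPG4: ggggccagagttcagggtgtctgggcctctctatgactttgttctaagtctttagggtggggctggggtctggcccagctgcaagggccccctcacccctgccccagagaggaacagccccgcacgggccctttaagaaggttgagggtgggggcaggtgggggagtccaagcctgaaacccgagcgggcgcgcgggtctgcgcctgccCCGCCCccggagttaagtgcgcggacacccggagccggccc

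The second PDGFRA window and the PDGFRB window each have a CCAAT box, 74 and 94 bases before the start (first bases at -74 and -94), and 32.0% of 35116 promoter windows of this length hold one. All 5 printed windows hold at least 1 E-box (CANNTG, not in capitals), as do 61.8% of all windows. A GC box was present in the second PDGFRA window (2 matches) and in the PDGFD, PDGFRB and CSPG4 windows (1 each), beside 42.6% of all windows. The first PDGFRA window has no GC box and holds the AP-1 match, TGAATCA at -32 (6.57% of all windows). None of the 5 printed windows, nor of the 4 of PDGFA, contained TTCNNNGAA, a spelling of the STAT element found in 6.57% of all windows, or the TATA box TATAAA (10.7%). These are matches of letters in short windows, and no overlap between matches of different motifs was found in those printed.

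Of 7 proteases measured that mature PDGF ligands, 1 was called higher and none lower (median change -0.00038). PLAT, tissue plasminogen activator, which cleaves the CUB domain from PDGF-CC, was at 11.74, 11.80 and 11.68 in control and at 12.41, 12.36 and 12.21 after oncostatin M. It rose by 0.58 (SE 0.08, adjusted p = 0.00626, limma), while the gene of its substrate, PDGFC, fell. The call of PLAT was lost only without control replicate 1 (adjusted p = 0.0502). PLAU, which can activate PDGF-DD, differed by -0.087 (adjusted p = 0.873), and FURIN, a convertase of the A and B chains, by -0.275 (adjusted p = 0.0981), neither past the threshold in limma. Among 5 proteins that bind PDGF or assist its receptors, HSPG2 (perlecan) fell by 0.36 (adjusted p = 0.0332) and the other 4 did not pass (list median -0.11). HSPG2 kept its call in 1 of 6 fits with an array left out.

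No gene of the signalling layers beneath the receptors was called (limma), and at an unadjusted p under 0.05 there were 0 of 17 and 2 of 8, where 11.6% of all genes had one. The 17 measured enzymes and adaptors that dock on the receptors ran from -0.275 (PIK3CB, adjusted p = 0.619) to 0.13, with a median of -0.073. Of these 17, 14 lay below 0, as did 9165 of all 18417 genes, and this split was not tested. The largest value after PIK3CB was that of PIK3R1 (-0.17, adjusted p = 0.481, limma). Among 8 measured kinases and GTPases of the RAS-ERK and AKT cascades the median was -0.024, and MAP2K1 (-0.22, adjusted p = 0.229) and PDPK1 (-0.16, adjusted p = 0.428) were farthest from 0.

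Genes that damp receptor signalling went both ways, with 2 of 13 higher and 4 lower (median -0.044) and 8 at an unadjusted p under 0.05. Over all genes, 1.72% were called higher and 1.7% lower, and 11.6% had an unadjusted p under 0.05 (limma). The Sprouty genes, inhibitors of receptor tyrosine kinase signalling, were split. SPRY1 rose by 0.96, from 7.83 ± 0.23 to 8.79 ± 0.11 (adjusted p = 0.00416, limma), whereas SPRY2 fell from 10.14 ± 0.05 to 9.04 ± 0.10 (adjusted p = 0.000363) and SPRY4 fell by 0.67 (adjusted p = 0.00436). Each of these 3 was called in all 6 fits with an array left out. DUSP6, a phosphatase of ERK, fell by 0.365 (adjusted p = 0.0255, limma). The other called genes, named after their values were seen, were PTPN1, a phosphatase that acts on receptor tyrosine kinases (0.34, adjusted p = 0.0398), and the ERK pathway inhibitor SPRED2 (-0.32, adjusted p = 0.0352). DUSP6, PTPN1 and SPRED2 each kept the call in 1 of 6 fits. With arrays centred on their medians the counts were 1 higher and 2 lower.

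Of 19 genes known to be induced by PDGF in fibroblasts, 1 was called higher and 3 lower, beside 1.72% and 1.7% of all genes. An unadjusted p under 0.05 (limma) was found for 12 of the 19, beside 11.6% of all genes. The changes went both ways (9 above 0 and 10 below, median -0.016). JUNB, an AP-1 subunit, rose by 1.08 (adjusted p = 0.000792, limma). SPHK1, the sphingosine kinase, fell by 0.88, from 8.72 ± 0.20 to 7.84 ± 0.16 (adjusted p = 0.00614), FOSL1, another AP-1 subunit, fell by 0.595 (0.0142), and the cyclin gene CCND1 fell by 0.48 (0.0138). Of these, JUNB and SPHK1 were called whichever array was left out. Without any 1 of the controls the counts were 1 higher and 1 lower, and with a robust variance prior that follows level they were 2 and 6.

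**Figure D4:**
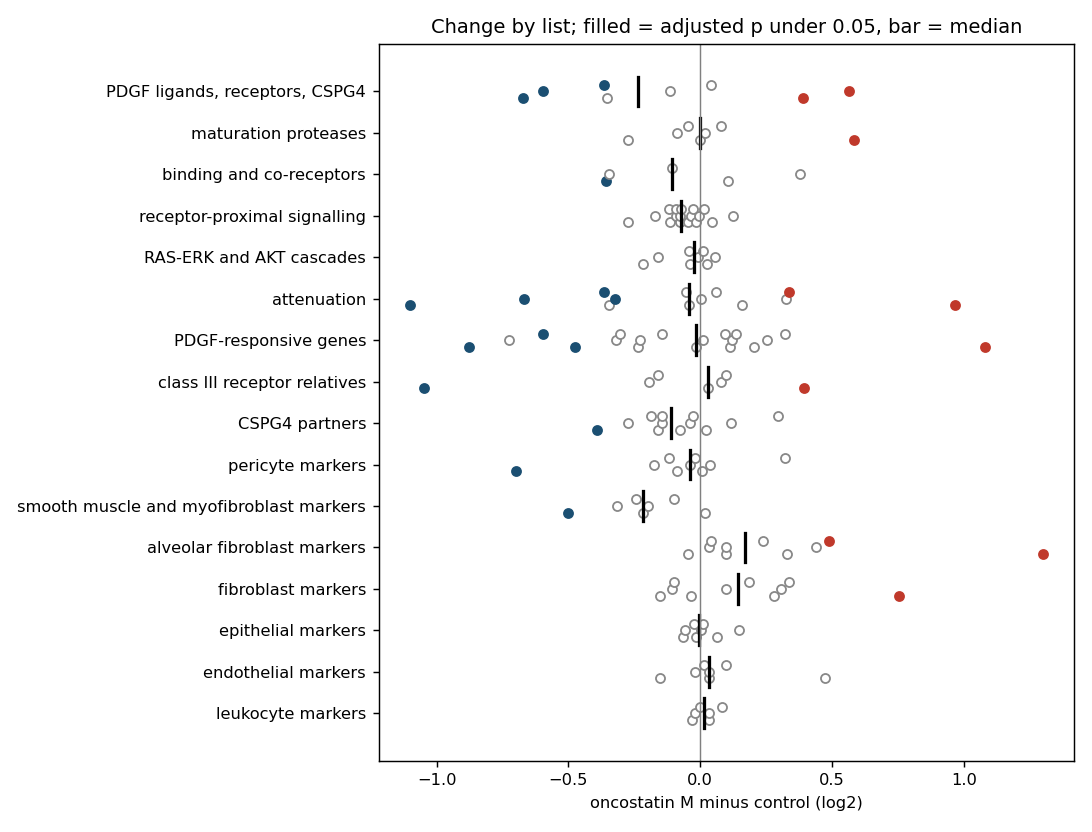
Change of each measured gene (log2, oncostatin M minus control) by list, with filled points for an adjusted p under 0.05 (red higher, blue lower), open points for the rest and a black bar for the list median. The lists of receptor-proximal signalling and of the RAS-ERK and AKT cascades have no called gene, whereas the 8 PDGF genes and the attenuation list have called genes on both sides.

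Receptors related to those of PDGF and their ligands were compared as the nearest family. Of 7 genes measured, CSF1, a ligand of the CSF1 receptor, was called higher and the receptor gene KIT lower. The shares over all genes were 1.72% higher and 1.7% lower. CSF1R and FLT3 lay below the 95th percentile of the reference genes in both groups. KIT was at 8.31, 8.16 and 8.54 in control and at 6.90, 7.42 and 7.53 after oncostatin M, with replicate 1 the lowest, as for CSPG4. It fell by 1.05 (SE 0.17, adjusted p = 0.013, limma), a call lost without control replicate 1 or 3 (up to 0.0848). CSF1 rose by 0.39 (adjusted p = 0.0145) and kept the call in 1 of 6 fits. The median of the 7 was 0.029.

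Of 12 genes whose products act with CSPG4, MMP14 was the gene called, where 3.42% of all genes were called. Of the 12, 4 had an unadjusted p under 0.05 (limma), beside 11.6% of all genes. MMP14, a membrane-bound matrix metalloproteinase, was at 10.58, 10.74 and 10.60 in control and at 10.24, 10.26 and 10.24 after oncostatin M, a fall of 0.39 (SE 0.07, adjusted p = 0.0246, limma). It kept this call in 1 of 6 fits, the one without oncostatin M replicate 1. The sheddase gene ADAM10 was higher by 0.29 without passing (adjusted p = 0.0836). The type VI collagen genes, whose products bind NG2, differed by -0.16 (COL6A1), -0.14 (COL6A2) and -0.04 (COL6A3), none past the threshold. The list median was -0.11, with 3 genes above 0 and 9 below, and GRIP1 lay below the 95th percentile of the reference genes in both groups.

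The labelled cell type was checked against markers. Of 10 fibroblast markers, 9 lay above the 95th percentile of the reference genes in both groups, S100A4 being at it, and the collagen genes COL1A1 and COL1A2 had control means of 13.22 and 12.88. All 8 epithelial markers lay below it in both groups, as did 5 of 7 endothelial markers, among them PECAM1, CDH5 and VWF, and 5 of 6 leukocyte markers, among them PTPRC. The exceptions were TEK, CLDN5 and the lysosomal gene CD68. None of these 21 genes was called (limma), 0, 1 and 0 of them had an unadjusted p under 0.05 (11.6% of all genes), and TEK was the farthest from 0 (0.47, adjusted p = 0.182).

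Since PDGFRB and CSPG4 serve as pericyte markers and PDGFRA as a marker of alveolar fibroblasts, the other markers of these cells were read beside them. Of 9 other pericyte markers 1 was called lower and none higher, beside 1.7% and 1.72% of all genes. Of the 9, 3 lay above 0 and 6 below (median -0.04), against 9252 above and 9165 below among all genes. HIGD1B and COX4I2 lay below the 95th percentile of the reference genes in both groups. The called marker was RGS5, a regulator of G-protein signalling. It measured 7.51, 7.31 and 7.34 in control. After oncostatin M it was at 6.55, 6.93 and 6.59, with a mean below the 95th percentile of the reference genes. RGS5 fell by 0.70 (adjusted p = 0.0143, limma), a call kept in 2 of 6 fits, while NOTCH3 and MCAM differed by -0.04 and -0.088. ANPEP, an aminopeptidase, was higher by 0.32 with groups that did not overlap (adjusted p = 0.0588, limma), without passing. The mean level of the 9 markers lay between 8.50 and 8.57 on the control arrays and from 8.42 to 8.47 on the treated ones. Of 7 smooth muscle and myofibroblast markers, CNN1 (calponin) fell by 0.50 (adjusted p = 0.0315, limma). Of these 7, 5 had an unadjusted p under 0.05 (limma), beside 11.6% of all genes, and 6 lay below 0. The median was -0.22, with mean levels of 10.04 to 10.16 in control and 9.78 to 9.96 after oncostatin M. CNN1 kept the call in 2 of 6 fits, and ACTA2 differed by -0.32 (adjusted p = 0.257).

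Of 10 other markers of alveolar fibroblasts, 2 were called higher and none lower, beside 1.72% and 1.7% of all genes. Of the 10, 9 lay above 0, as did 9252 of all 18417 genes, and the median was 0.17. WNT2, a secreted Wnt ligand, went from 5.62, 5.91 and 5.84 in control, within the range of the reference genes, to 7.21, 7.26 and 6.79 after oncostatin M (change 1.30, adjusted p = 0.00185, limma), and was called whichever array was left out. MFAP4, a microfibril-associated protein, rose by 0.49 (adjusted p = 0.0408), a call kept in 2 of 6 fits. The mean level of the 10 markers was 7.31 to 7.42 in control and 7.57 to 7.70 after oncostatin M. NPNT, FGFR4, LIMCH1 and GPC3, which are among those above 0 (0.034 to 0.099), lay below the 95th percentile of the reference genes in both groups. Fibroblast markers in general had LUM (lumican) higher by 0.75 (adjusted p = 0.0222) and a median of 0.14. The part of any of these markers in the changes of PDGFRA, PDGFRB and CSPG4 was not tested.

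For each called gene the most similar profiles over the 6 arrays were found by the root mean square difference between values centred on each gene's mean. PDGFC was nearest to PDCD1LG2, which encodes the checkpoint ligand PD-L2 (difference 0.045), then NUAK1 (0.048) and RGS9 (0.0487). PDGFD was nearest to HNMT (0.0515), IL7 (0.0522) and ALDH1A3 (0.0679). PDGFRA was nearest to NTN4 (0.0413), CNTNAP1 (0.0445) and SLCO5A1 (0.0461). PDGFRB was nearest to MAST4 (0.0338), LDAF1 (0.0359) and KLHL4 (0.0363). CSPG4 was nearest to WWC3 (0.0489), MACIR (0.0565) and L3MBTL3 (0.0573). No gene of the 8, and none of their pathway lists, was among these 15. RGS9, HNMT, IL7, SLCO5A1 and KLHL4 lay below the 95th percentile of the reference genes in both groups. NTN4, SLCO5A1 and MACIR were not called (adjusted p = 0.0641, 0.0557 and 0.0569, limma).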

How the data were processed

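Expression was measured in 6 samples of IMR90 fibroblasts, 3 per group, grouped and numbered by the labels. The deposited log2 values, 1 per probe set and array, come from RMA, run by the authors in version 1.1 of Affymetrix Expression Console, settings unstated, per the submitters' processing notes. RMA makes the arrays' distributions alike and shrinks small signals together, so a change is relative to other genes. The genome build is not named in the labels.

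Of 33297 probe sets 19460 had exactly 1 gene symbol, 1754 several and 12083 none in a platform gene table. Each of 18417 genes was represented by its probe set of highest mean level, with no filter. limma 3.58.1 in R 4.3.3 was used to fit the group term alone (two-sided, Benjamini-Hochberg). The model was tested on simulated data. Precision is limited by the small number of arrays. The genes, lists and tests were chosen with earlier results of these data known, so no list supports another. The text names the 8 genes, up to 4 called genes per list (or up to 2 with the largest change where none passed), SOCS3 and the 3 nearest profiles, and other genes as values only, chosen after they were seen. Alternatives covered normalization, probe set choice, dim-gene filters, the threshold, the variance prior, weighting of arrays, blocking on the replicate number and omission of single arrays.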

Additional observations from a re-analysis of the deposited data

How the results depend on the processing

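Of the 5 called genes, PDGFC kept its direction and call under all alternatives run. PDGFD, PDGFRA, PDGFRB and CSPG4 kept theirs under the 3 normalizations, both probe set choices, both filters, the variance prior and array weights, and none passed a threshold of 0.01 (changes 0.564, 0.391, -0.366 and -0.671), where the 8 genes gave 0 higher and 1 lower. With 1 array left out, changes ran from 0.442 to 0.633 for PDGFD, 0.352 to 0.448 for PDGFRA, -0.392 to -0.342 for PDGFRB, -0.759 to -0.535 for CSPG4, -0.389 to -0.288 for PDGFA, -0.202 to -0.0305 for PDGFB and -0.0434 to 0.16 for PDGFRL, and counts among the 8 genes from 0 to 2 higher and 1 to 4 lower. PDGFA became called after quantile normalization (-0.359), cyclic loess (-0.349), both filters on dim genes (-0.355), array weights (-0.428) and at a threshold of 0.1 (-0.355). With array weights PDGFRL turned to -0.0833 and PDGFB was at -0.246, not called. Over all genes, 316 were higher and 314 lower. These counts were 667 and 610 with array weights, 175 and 112 at a threshold of 0.01, and 156 to 400 and 105 to 332 with 1 array left out. The cause was not tested, and fits without an array have fewer samples.

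Deviations from the group means correlated at 0.0635, -0.456 and 0.511 between arrays numbered 1, 2 and 3. Of 6 arrays, 3 correlated best with their own number. These values showed no clear pairing by replicate number, and 3 arrays per group are too few to exclude it. With a replicate block, PDGFRA (0.391, adjusted p = 0.0697) and PDGFRB (-0.366, adjusted p = 0.0871) were not called, so 1 of the 8 genes was higher, with 2 lower (limma), and 255 genes were higher and 223 lower over all. PDGFB fell outside the filter at the median level. The differences between pairs of genes kept their direction under the 3 normalizations and the mean of all probe sets, and their test cannot pass in any of them. PDGFB lies near the level of genes taken as silent, where RMA shrinks differences, so its size is uncertain.
Over all alternatives, called genes ranged from 1 to 3 higher and 2 to 5 lower for attenuation, 1 to 3 higher and 1 to 6 lower for PDGF-responsive genes, 0 to 4 lower for smooth muscle and myofibroblast markers, 1 to 4 higher for alveolar fibroblast markers and 0 to 3 higher for fibroblast markers, where the reported counts are 2, 4, 1, 3, 1, 2 and 1. Counts moved between 0 and 1 in both directions for proteases, related receptors, CSPG4 partners and pericyte markers, among lower genes for binding proteins and among higher genes for endothelial markers, and the signalling, epithelial and leukocyte lists stayed at 0.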
